A study of Homo sapiens with 9 samples.

Results

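The genes that encode the human proteasome were followed in MM.1S cells, a line grown from a patient's multiple myeloma, after 24 h with epigallocatechin gallate (EGCG), a polyphenol of green tea. A gene was taken as a member if GENCODE 29 lists it as protein-coding and its symbol is PSMA to PSMG followed by a number, or if it is POMP or NFE2L1. This gave 50 of the 60675 gene IDs. By known role, 7 encode alpha subunits and 7 constitutive beta subunits of the 20S core, 3 encode the exchangeable subunits of the immunoproteasome and 2 encode core subunits of testis and thymus. The 19S cap has 6 ATPases and 11 other subunits among the members. Another 4 encode activators, 1 an inhibitor, 8 assembly factors, and 1 a transcription factor.

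The proteasome is a barrel of stacked rings that cuts proteins marked with ubiquitin. The alpha rings gate the barrel, the beta rings hold the cutting sites, and the 19S cap binds, unfolds and feeds in the substrate. Plasma cells and myeloma cells make large amounts of antibody and depend on this machine, which is why the beta subunit PSMB5 is the target of bortezomib and related myeloma drugs. When proteasome activity falls, the transcription factor NFE2L1 (also called NRF1 or TCF11) is freed from the endoplasmic reticulum and raises transcription of proteasome genes, and interferon brings in the immunoproteasome subunits and the PSME1-PSME2 activator.

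RNA was sequenced from cells given 0 µM (the control), 40 µM or 80 µM EGCG, with 3 libraries per dose and no other treatment or genetic change. MM.1S is 1 line, and the labels do not say that the libraries came from separate cultures, so p-values measure only the spread between these libraries. Library totals ran from 12674490 to 16427343 counts, so 3 counts correspond to 0.183 to 0.234 CPM (counts scaled to a common library size, with TMM factors). The 9 plasma cell and MM.1S identity genes summed to 5500 to 6390 CPM in every library. The marker lists of other cell types stayed low, with B cell markers at 8.22 to 23.1 CPM, T and NK cell markers at 3.35 to 7.51, monocyte markers at 4.91 to 16.0 and stromal markers at 0.892 to 3.9. CD22, CD3D, NKG7, S100A8, COL1A2, LUM and PDGFRA had 0 counts throughout. B cell markers stood at 8.22 to 8.63 CPM at 80 µM, against 19.6 to 23.1 in the control, through CR2. T and NK cell markers stood at 3.74 to 4.02 CPM at 80 µM, against 5.44 to 7.51 in the control, and the plasma cell and MM.1S genes at 5500 to 5810 CPM, against 6260 to 6390. The part of these shifts in the results was not tested.

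At 80 µM the proteasome genes moved little and mostly downwards. Of the 47 members with enough counts to test, 1 was higher and 11 were lower than in the control at an adjusted p under 0.05 (edgeR's quasi-likelihood test, Benjamini-Hochberg adjusted over 15982 genes). Of all genes tested, 34.9% were called in this comparison, 17.4% higher and 17.5% lower, so the 25.5% of members called lay below the background and the 23.4% called lower lay somewhat above it. The median log2 fold change was -0.15 over the members and -0.00134 over all genes tested. On the log2 scale 40 of the 47 members changed by less than 0.5, as did 9209 of the 15982 genes. All 3 libraries at 80 µM lay above all 3 control libraries for 3 members, and below them for 17, against 24.6% and 25.3% of all genes tested. In bulk RNA, fewer cells that express a gene and less of its RNA per cell cannot be told apart.

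The number of members called lower rested on single libraries. It was 3 without replicate 2 at 80 µM, 4 without replicate 3 at 80 µM, 5 without control replicate 1 and 6 without control replicate 3, against 11 with all libraries. It was 8 without replicate 1 at 80 µM and 8 without control replicate 2. The number called higher was 2 instead of 1 without replicate 3 at 80 µM, replicate 2 at 40 µM, control replicate 1 or control replicate 2. Only NFE2L1, PSMG4, PSME2 and PSME1 were called at 80 µM in all 14 alternative analyses. Replicate 2 at 80 µM was the lowest of the 9 libraries for 18 of the 47 members, and control replicate 3 was the highest for 17. At 40 µM, replicate 2 was the highest of 9 for 18 members.

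**Figure D1:**
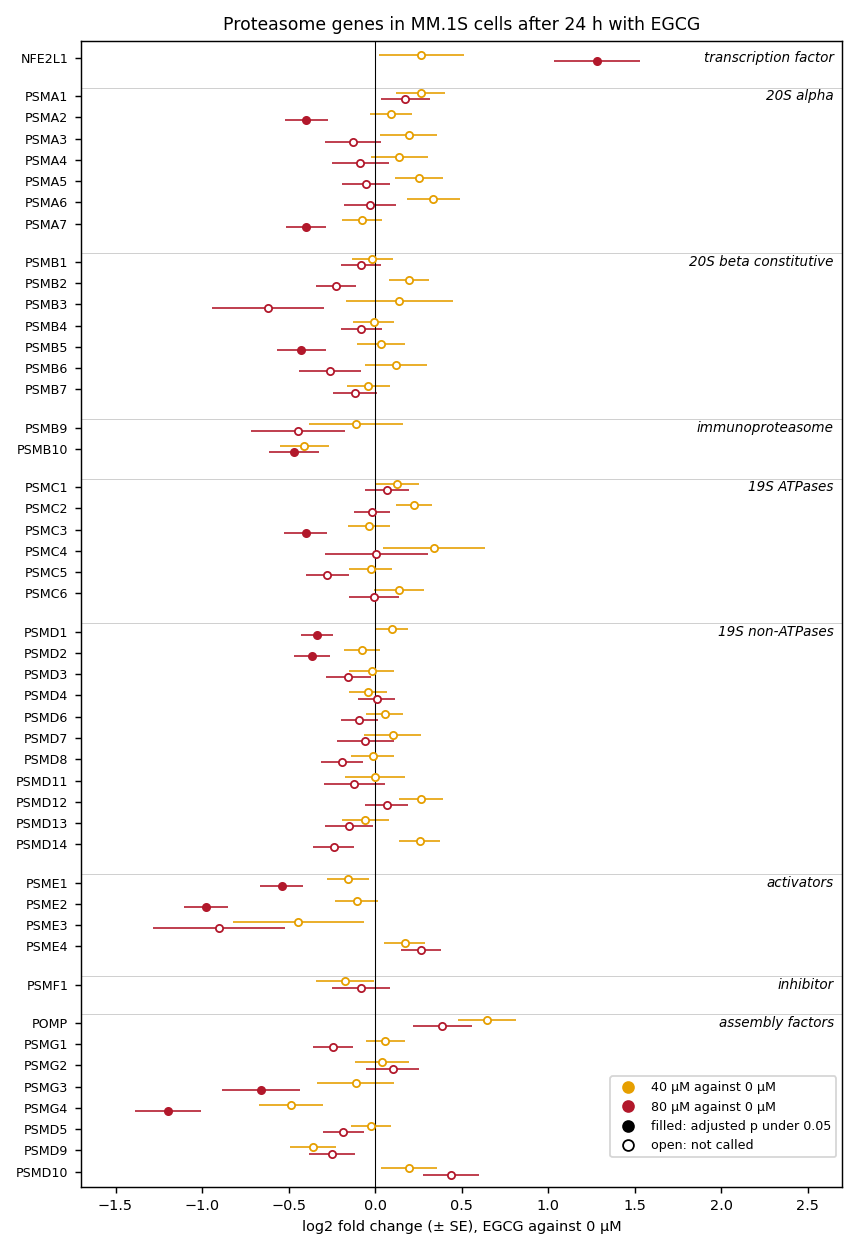
Log2 fold change of each of the 47 tested members, with bars of 1 standard error, at 40 µM (orange) and 80 µM (red) against the control; filled points are called at an adjusted p under 0.05. NFE2L1 lies apart on the right at 1.28 and PSMG4 and PSME2 lie farthest left at -1.20 and -0.98, while most subunits of the 20S core and the 19S cap lie within 0.5 of 0.

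Summed over each class, the CPM at 80 µM was 0.899 of the control's for the 14 subunits of the 20S core and 0.878 for the 17 subunits of the 19S cap. The sums of the core were 2015, 1927 and 2245 CPM at 0 µM, 2072, 2398 and 2064 CPM at 40 µM and 2003, 1720 and 1841 CPM at 80 µM, and the 80 µM range reached into the control's. The 19S sums were 2768, 2697 and 3080 CPM at 0 µM, 2985, 2926 and 2797 CPM at 40 µM and 2621, 2366 and 2512 CPM at 80 µM, and no library at 80 µM reached the control's range. The activators stood lower, at 0.696 of the control at 80 µM and 0.869 at 40 µM. Their sums averaged 601 CPM at 0 µM, 522 at 40 µM and 418 at 80 µM. PSME3, which was not called at either dose and varied widely between libraries, made up most of these differences. It averaged 287, 211 and 153 CPM at 0, 40 and 80 µM. The immunoproteasome sum was 0.722 of the control at 80 µM and 0.762 at 40 µM. It was nearly all PSMB10, which gave 131 of 138 CPM at 0 µM, with PSMB8 listed at 0, so it describes PSMB10 rather than the class. The assembly factors summed to 0.936 of the control at 80 µM, a sum of members with log2 fold changes on both sides of 0. These sums are descriptions without a test, and abundant members weigh most in them.

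**Figure D2:**
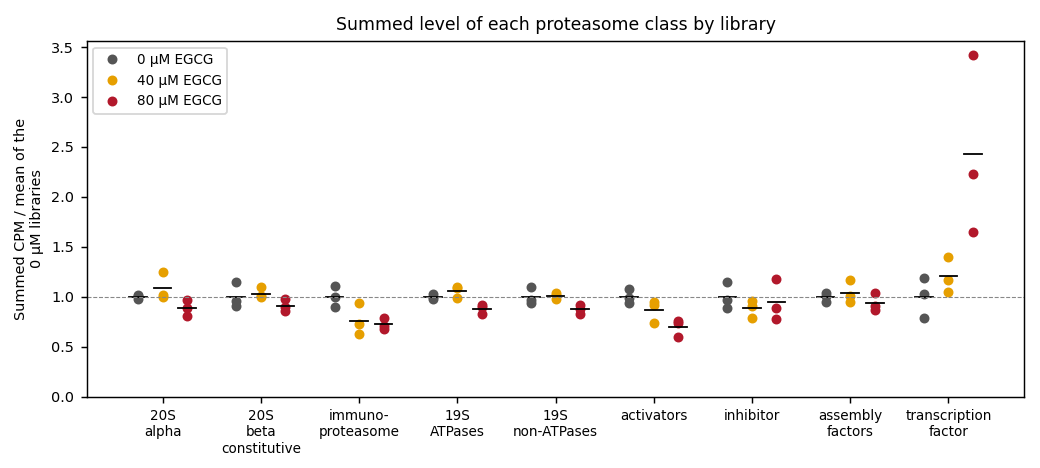
Summed CPM of each class in each library, divided by the mean of the 3 libraries at 0 µM, at 0 µM (grey), 40 µM (orange) and 80 µM (red); black bars are means of 3 libraries. The core and cap classes at 80 µM sit just under 1, the activators and the immunoproteasome lie near 0.7 and NFE2L1, the transcription factor, averages 2.43. PSME3, which was not called, weighs most in the activators, and the immunoproteasome sum is nearly all PSMB10.

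NFE2L1 (ENSG00000082641, chr17:48048329-48061487, plus strand, GRCh38, GENCODE 29) was the member with the largest change and the only one called higher. Its product sits in the endoplasmic reticulum membrane and is degraded there while proteasomes are active. It had 189, 246 and 284 CPM at 0 µM, 335, 279 and 252 CPM at 40 µM and 395, 535 and 821 CPM at 80 µM. All 3 libraries at 80 µM lay above every other library, and they were spread more widely than those of either other dose. The log2 fold change at 80 µM against the control was 1.28 ± 0.25 (SE), with a 95% interval of 0.74 to 1.83 (edgeR's quasi-likelihood test, adjusted p = 0.00272). Over the alternative analyses it ran from 0.97 to 1.49. At 40 µM the groups overlapped and the log2 fold change was 0.27 ± 0.24 (edgeR, adjusted p = 0.565). The 80 µM libraries also lay above the 40 µM libraries, by 1.01 ± 0.25 on the log2 scale (edgeR, adjusted p = 0.0145). These counts measure the messenger RNA and not the processed protein.

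The 14 subunits of the 20S core changed by -0.62 to 0.18 on the log2 scale at 80 µM, with a median of -0.12. The -0.62 was that of PSMB3, whose few counts are set aside below, and PSMB5 came next at -0.43. In the core 3 subunits were called lower, 21.4% against 17.5% of all genes tested. Among the alpha subunits, whose rings form the gate of the barrel, 2 of 7 (28.6%) fell at 80 µM, PSMA7 and PSMA2. PSMA7 had 279, 252 and 321 CPM at 0 µM, 294, 269.8 and 244 CPM at 40 µM and 221, 201 and 225 CPM at 80 µM, and its 80 µM libraries lay below all others. Its log2 fold change at 80 µM against the control was -0.40 ± 0.12 (edgeR, adjusted p = 0.0222). PSMA2 had 141, 151 and 144 CPM at 0 µM, 152, 174 and 139 CPM at 40 µM and 128, 102 and 102 CPM at 80 µM, again with the 80 µM libraries lowest, and changed by -0.40 ± 0.12 (edgeR, adjusted p = 0.0283). Both calls rested on single libraries. For PSMA7 the edgeR adjusted p was 0.102 without replicate 2 and 0.0548 without replicate 3 at 80 µM, 0.0597 without control replicate 1 and 0.056 without control replicate 3. For PSMA2 it was 0.122 without replicate 2 and 0.118 without replicate 3 at 80 µM, 0.0634 without control replicate 1, 0.082 without control replicate 2 and 0.0562 with no filter on low counts. MRPL32, a gene of the mitochondrial ribosome that overlaps PSMA2 on the opposite strand, changed by -0.51 ± 0.13 (edgeR, adjusted p = 0.0102). The sources used here do not give the strand setting of the counting, so whether reads of such a pair were separated is not known. Overlap here means that the annotated spans of the genes, introns included, share bases.

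The other 5 alpha subunits were not called. PSMA1 had 144, 157 and 126 CPM at 0 µM, 157, 196 and 159 CPM at 40 µM and 185, 136 and 161 CPM at 80 µM, with the 40 µM libraries above all control libraries by a narrow margin. PSMA6 had 79.6, 72.8 and 74.6 CPM at 0 µM, 72.2, 116 and 98.4 CPM at 40 µM and 72.5, 73.6 and 76.3 CPM at 80 µM, and its highest library was replicate 2 at 40 µM. That library was also the highest for PSMA3, PSMA4 and PSMA5, which had -0.13, -0.08 and -0.05 as log2 fold changes at 80 µM against the control. Without replicate 1 at 40 µM, PSMA6 was called at 40 µM against the control (log2 fold change 0.51, edgeR adjusted p = 0.0488) and at 80 µM against 40 µM (-0.54, edgeR adjusted p = 0.0119).

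The cutting sites of the constitutive core belong to PSMB5 (chymotrypsin-like), PSMB6 (caspase-like) and PSMB7 (trypsin-like). PSMB5 (ENSG00000100804, chr14:23016543-23035230, minus strand) fell at 80 µM. It had 24.8, 26.3 and 31.2 CPM at 0 µM, 32.2, 25.8 and 26.2 CPM at 40 µM and 18.7, 20.8 and 21.7 CPM at 80 µM, with all 80 µM libraries below the others, and its log2 fold change against the control was -0.43 ± 0.14 (edgeR, adjusted p = 0.0371). PSMB6 had 99.7, 97.7 and 126 CPM at 0 µM, 150.3, 93.9 and 108 CPM at 40 µM and 102, 81.7 and 86.6 CPM at 80 µM, and the groups overlapped. PSMB7 had 171, 159 and 199.9 CPM at 0 µM, 166, 175 and 174 CPM at 40 µM and 189.7, 144 and 156 CPM at 80 µM, also with overlap. The 95% intervals at 80 µM against the control were -0.66 to 0.13 for PSMB6 and -0.39 to 0.16 for PSMB7, neither of them called. The call of PSMB5 held in 6 of 14 alternatives. Its edgeR adjusted p was 0.113, 0.0929 and 0.0698 without replicate 1, 2 or 3 at 80 µM, 0.0532 without replicate 3 at 40 µM, and 0.0609 and 0.0985 without control replicate 2 or 3. It was 0.0684 with no filter on low counts and 0.0634 with a block for replicate number.

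Among the non-catalytic beta subunits none was called. PSMB2 had 228, 212 and 266 CPM at 0 µM, 247, 304 and 259 CPM at 40 µM and 209, 196 and 198 CPM at 80 µM, with the 80 µM libraries below all others and a log2 fold change of -0.23 ± 0.12 against the control (edgeR, adjusted p = 0.153). PSMB1 and PSMB4 changed by -0.08 and -0.08. PSMB3 had 2.77, 2.53 and 2.60 CPM at 0 µM, 1.59, 3.10 and 4.08 CPM at 40 µM and 1.64, 1.78 and 1.72 CPM at 80 µM, which came from 306 counts over the 9 libraries. Those counts are far below the other constitutive beta subunits although each core holds equal numbers of all of them, so the listed level of PSMB3 was not taken as a measure of its RNA.

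**Figure D3:**
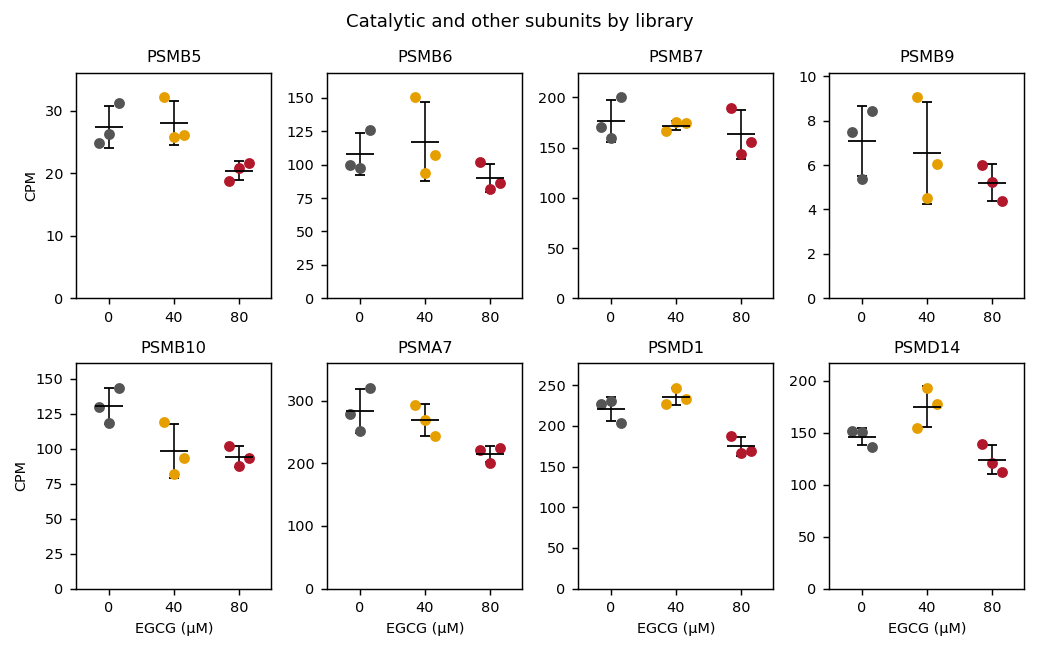
CPM of 8 subunits in each library at 0, 40 and 80 µM EGCG, with points for libraries, a bar for the mean and whiskers for the SD (n = 3). PSMB5, PSMA7 and PSMD1 have all 3 of their 80 µM libraries below the other doses, PSMD14 has its lowest values there, PSMB10 is lower than the control in all but 1 library with EGCG, and PSMB6, PSMB7 and PSMB9 overlap between doses.

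In the immunoproteasome, PSMB8, PSMB9 and PSMB10 take the places of PSMB5, PSMB6 and PSMB7. PSMB10 (ENSG00000205220, chr16:67934502-67937087, minus strand) had the most counts of the 3 and fell at 80 µM. Its promoter is shown because it carries the core of the interferon-stimulated response element, which is GAAA, any 2 bases and GAAA, just before the start. The sequence is the 250 bases before the RefSeq start of PSMB10 (GRCh38.p14, chr16:67936851-67937100, minus strand, written 5′ to 3′ toward the gene), and the capitals mark the element, which lies 12 to 21 bases before the start.
PSMB10: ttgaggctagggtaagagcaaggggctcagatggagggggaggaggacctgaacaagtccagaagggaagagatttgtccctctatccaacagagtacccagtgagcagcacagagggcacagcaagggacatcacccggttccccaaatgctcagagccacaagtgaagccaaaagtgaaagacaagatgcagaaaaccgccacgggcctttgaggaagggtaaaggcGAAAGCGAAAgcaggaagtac

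PSMB10 had 129.7, 118 and 144 CPM at 0 µM, 119, 82.2 and 93.5 CPM at 40 µM and 102, 87.3 and 93.3 CPM at 80 µM. The 80 µM libraries lay below the control, and at 40 µM replicate 1 lay within the control range and the other libraries below it. The log2 fold change was -0.41 ± 0.14 at 40 µM (edgeR, adjusted p = 0.157) and -0.47 ± 0.14 at 80 µM (edgeR, adjusted p = 0.0273). The edgeR adjusted p at 80 µM was 0.11 and 0.0838 without replicate 2 or 3 at 80 µM, and 0.0706 and 0.0831 without control replicate 1 or 3. AC040162.1, a gene annotated on the same strand over PSMB10, changed by -0.66 ± 0.16 at 80 µM (edgeR, adjusted p = 0.00952), so reads of the pair may have been split between them. Per kilobase of exon, PSMB10 stood at 0.714 ± 0.0196 of PSMB7, the subunit it replaces, at 0 µM, at 0.554 ± 0.124 at 40 µM and at 0.561 ± 0.0363 at 80 µM (SD over 3 libraries). The ratio was lower at 80 µM (0.52 to 0.587) than in every control library (0.694 to 0.733), as a description without a test.

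PSMB9 had 7.49, 5.36 and 8.42 CPM at 0 µM, 9.05, 4.54 and 6.05 CPM at 40 µM and 6.02, 5.22 and 4.37 CPM at 80 µM, and its groups overlapped. Its log2 fold change at 80 µM was -0.44 ± 0.27, with a 95% interval of -1.05 to 0.16 (edgeR, adjusted p = 0.236). PSMB8 was listed at 0 counts in all 9 libraries. It lies beside PSMB9 on chromosome 6 among the genes of the major histocompatibility complex, where TAP1 and the tubulin gene TUBB, which every dividing cell uses, were also listed at 0. CSNK2B, another gene used by every cell, had 32 counts over all libraries there and FLOT1 had 10. The listed 0 of PSMB8 therefore does not show that the gene was silent. PSMB9 itself overlaps PSMB8 and TAP1 on the opposite strand, so its listed counts were not taken as a measure of its level either, nor as showing that PSMB10 was the more abundant. PSMA8, an alpha subunit of testis, and PSMB11, a beta subunit of the thymus, were listed at 0 as well.

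Of the 17 subunits of the 19S cap, 3 fell at 80 µM and none rose, and their log2 fold changes ran from -0.40 to 0.07 with a median of -0.12. The 17.6% called lower lay near the 17.5% of all genes tested. The ATPases form the ring that unfolds substrates and opens the gate, and 1 of 6 (16.7%) fell, PSMC3. PSMC3 had 172, 159 and 192 CPM at 0 µM, 186, 173 and 152 CPM at 40 µM and 136, 115 and 146 CPM at 80 µM, with no overlap of the 80 µM libraries and the others. It changed by -0.40 ± 0.12 at 80 µM (edgeR, adjusted p = 0.0287). The edgeR adjusted p was 0.059 and 0.134 without replicate 1 or 2 at 80 µM, and 0.0722 and 0.0737 without control replicate 1 or 3.

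PSMC5 had 116, 122 and 126 CPM at 0 µM, 141, 102 and 115 CPM at 40 µM and 93.1, 102 and 106 CPM at 80 µM. Its 80 µM libraries lay below the control, but the change of -0.28 ± 0.12 was not called (edgeR, adjusted p = 0.114), and FTSJ3, which overlaps it on the opposite strand, changed by -0.79 ± 0.10 (edgeR, adjusted p = 0.00027). PSMC2 had 186, 182 and 184 CPM at 0 µM, 206, 234 and 203 CPM at 40 µM and 204, 168 and 171 CPM at 80 µM, above the control in each 40 µM library and not called at either dose. PSMC1 had 21.9, 23.8 and 21.0 CPM at 0 µM, 21.1, 27.6 and 23.9 CPM at 40 µM and 23.1, 23.8 and 23.1 CPM at 80 µM, with overlapping groups. Its 2956 counts over the 9 libraries were fewer than the 8399 listed for PSMC1P1, a processed pseudogene of it, so reads of PSMC1 may have been assigned to the copy. The sum of PSMC1 is uncertain for that reason, and the pseudogene changed by -0.08 ± 0.10 at 80 µM (edgeR, adjusted p = 0.579). PSMC4 was listed at 0.809 CPM per kilobase of exon in the control, from 267 counts in all, and was treated like PSMB3. PSMC6 changed by -0.00.

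The non-ATPase subunits form the scaffold of the cap and the lid that removes ubiquitin. PSMD1 and PSMD2, the large scaffold subunits that bind ubiquitin-like domains, fell at 80 µM, 2 of 11. That was 18.2%, near the 17.5% of all genes tested that were called lower. PSMD1 had 227, 231 and 204 CPM at 0 µM, 227, 247 and 233 CPM at 40 µM and 188, 167 and 169.8 CPM at 80 µM, with the 80 µM libraries lowest, and changed by -0.34 ± 0.09 against the control (edgeR, adjusted p = 0.0194). PSMD2 had 538, 515 and 637 CPM at 0 µM, 573, 521 and 509 CPM at 40 µM and 440.1, 427 and 444 CPM at 80 µM, also without overlap, and changed by -0.37 ± 0.10 (edgeR, adjusted p = 0.0195). For PSMD1 the edgeR adjusted p was 0.0949 and 0.086 without replicate 2 or 3 at 80 µM, and 0.0779 and 0.0679 without control replicate 1 or 2. For PSMD2 it was 0.0809 and 0.0628 without replicate 2 or 3 at 80 µM.

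PSMD14 encodes the enzyme of the lid that cuts ubiquitin off the substrate. It had 152, 151 and 136 CPM at 0 µM, 154, 194 and 177 CPM at 40 µM and 139, 121 and 112 CPM at 80 µM. The 40 µM libraries lay above the control and the 80 µM libraries overlapped it, with a log2 fold change of -0.24 ± 0.12 at 80 µM against the control (edgeR, adjusted p = 0.147). PSMD4, a ubiquitin receptor, differed least among the non-ATPases, at 0.01 with a 95% interval of -0.23 to 0.25. The remaining 7 members of the class, PSMD3, PSMD6, PSMD7, PSMD8, PSMD11, PSMD12 and PSMD13, changed by -0.19 to 0.07 and were not called.

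The activators are rings that dock on the core in place of the 19S cap. PSME1 and PSME2 encode the interferon-inducible pair PA28 alpha and beta, PSME3 the nuclear PA28 gamma and PSME4 the nuclear activator PA200. Both genes of the pair fell at 80 µM, so 50.0% of the 4 activators were called lower, against 17.5% of all genes tested. The immunoproteasome had the same share, with 1 of its 2 tested members. Their genes lie within a few kilobases of each other on chromosome 14, PSME1 at ENSG00000092010, chr14:24136158-24138967, plus strand, and PSME2 at ENSG00000100911, chr14:24143362-24147570, minus strand. Their promoters are shown because they hold motifs of the factors named above. Each sequence is the 250 bases before the RefSeq start (GRCh38.p14), 5′ to 3′ toward the gene. Capitals mark the antioxidant response element core TGACNNNGC, which NFE2L1 and its relatives bind, and in PSME2 also the interferon core. For PSME1 the window is chr14:24135944-24136193 on the plus strand, with TGACNNNGC 78 to 86 bases before the start. For PSME2 it is chr14:24146611-24146860 on the minus strand, with TGACNNNGC 167 to 175 bases and the interferon core 19 to 28 bases before the start.
PSME1: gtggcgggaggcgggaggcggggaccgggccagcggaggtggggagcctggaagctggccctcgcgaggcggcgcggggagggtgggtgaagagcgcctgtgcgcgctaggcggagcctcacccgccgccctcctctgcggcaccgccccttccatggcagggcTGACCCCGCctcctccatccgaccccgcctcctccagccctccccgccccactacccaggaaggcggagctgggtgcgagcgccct
PSME2: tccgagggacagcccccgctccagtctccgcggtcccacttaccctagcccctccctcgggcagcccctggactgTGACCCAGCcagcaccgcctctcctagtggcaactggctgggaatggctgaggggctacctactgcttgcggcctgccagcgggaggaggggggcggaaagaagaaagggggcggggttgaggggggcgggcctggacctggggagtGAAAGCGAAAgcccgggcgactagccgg

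PSME2 had 63.6, 65.7 and 70.9 CPM at 0 µM, 66.7, 61.1 and 58.3 CPM at 40 µM and 38.8, 33.8 and 29.1 CPM at 80 µM. The 80 µM libraries lay well below both other doses, which overlapped each other. It fell by 0.98 ± 0.13 on the log2 scale at 80 µM against the control, with a 95% interval of -1.26 to -0.70 (edgeR, adjusted p = 0.000277), and changed by -0.11 ± 0.12 at 40 µM (edgeR, adjusted p = 0.666). Pseudogenes of PSME2 held counts too, with PSME2P1 at 12% and PSME2P2 at 8.43% of its total. PSME1 had 116, 122 and 148 CPM at 0 µM, 116, 126 and 106 CPM at 40 µM and 95.9, 88.7 and 81.8 CPM at 80 µM, again with the 80 µM libraries lowest. It changed by -0.54 ± 0.12 at 80 µM (edgeR, adjusted p = 0.00663). EMC9, which overlaps PSME1 on the opposite strand, changed by -0.45 ± 0.15 (edgeR, adjusted p = 0.0358), and RNF31, which overlaps PSME2 in the same way, by 0.28 ± 0.27 (edgeR, adjusted p = 0.458). Per kilobase of exon, PSME2 stood at 0.259 ± 0.0186 of PSME1 at 0 µM, 0.267 ± 0.0241 at 40 µM and 0.189 ± 0.0124 at 80 µM (SD over 3 libraries). The ratio was thus lower in every 80 µM library (0.177 to 0.201) than in the control libraries (0.237 to 0.272).

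PSME3 had 263, 274 and 324 CPM at 0 µM, 251, 109 and 273 CPM at 40 µM and 73.3, 185 and 202 CPM at 80 µM. It was the member with the widest spread at 80 µM, where replicate 1 was far below the others, and replicate 2 at 40 µM was low in the same way. All 80 µM libraries lay below the control, but the log2 fold change of -0.90 ± 0.38 was not called (edgeR, adjusted p = 0.0906). It was called only without replicate 2 at 40 µM (-0.91, edgeR adjusted p = 0.0415), and without replicate 1 at 80 µM it was -0.57 (edgeR, adjusted p = 0.21). BECN1, an autophagy gene that overlaps PSME3 on the opposite strand, changed the other way, by 0.47 ± 0.12 (edgeR, adjusted p = 0.0107). PSME4 had 118, 134 and 104 CPM at 0 µM, 121, 147 and 132 CPM at 40 µM and 149.6, 136 and 141 CPM at 80 µM. Its 80 µM libraries lay above the control, and the log2 fold change of 0.27 ± 0.12 was not called (edgeR, adjusted p = 0.107) except without control replicate 2 (0.37, edgeR adjusted p = 0.0466).

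PSMF1, which encodes the inhibitor PI31, had 56.2, 61.1 and 73.0 CPM at 0 µM, 49.8, 61.0 and 57.8 CPM at 40 µM and 56.0, 49.2 and 74.6 CPM at 80 µM. The groups overlapped at both doses, and the 95% interval of its log2 fold change at 80 µM was -0.45 to 0.29.

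The assembly factors went different ways. PSMG1 with PSMG2 and PSMG3 with PSMG4 form paired chaperones that build the alpha ring. POMP brings in the beta subunits, and PSMD5, PSMD9 and PSMD10 chaperone the ATPase ring of the cap. Of these 8 genes, PSMG4 and PSMG3 fell at 80 µM and none rose by the test. PSMG4 (ENSG00000180822, chr6:3231403-3303373, plus strand) had, after NFE2L1, the largest change of any member. Its promoter is shown because it holds the same interferon-response core as those of PSMB10 and PSME2. The 250 bases before the RefSeq start are chr6:3258697-3258946 of GRCh38.p14 on the plus strand, and capitals mark that core, 24 to 33 bases before the start.
PSMG4: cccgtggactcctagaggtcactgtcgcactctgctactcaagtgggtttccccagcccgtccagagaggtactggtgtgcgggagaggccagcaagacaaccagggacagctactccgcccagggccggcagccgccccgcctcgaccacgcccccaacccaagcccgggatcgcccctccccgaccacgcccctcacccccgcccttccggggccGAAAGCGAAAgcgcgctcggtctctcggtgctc

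PSMG4 had 28.2, 28.2 and 37.8 CPM at 0 µM, 27.9, 21.7 and 17.6 CPM at 40 µM and 12.3, 13.5 and 15.3 CPM at 80 µM. The 3 doses did not overlap, and each step up in dose lay lower. The log2 fold change was -0.49 ± 0.19 at 40 µM (edgeR, adjusted p = 0.19) and -1.20 ± 0.19 at 80 µM, with a 95% interval of -1.62 to -0.77 (edgeR, adjusted p = 0.000953). On the opposite strand TUBB2B and SLC22A23 overlap PSMG4 and changed by -0.19 and 0.50 on the log2 scale. PSMG3, its partner, had 34.5, 30.0 and 51.6 CPM at 0 µM, 44.8, 34.1 and 28.4 CPM at 40 µM and 28.1, 21.8 and 23.6 CPM at 80 µM. Its 80 µM libraries lay below all others, and it changed by -0.66 ± 0.22 (edgeR, adjusted p = 0.0431). Leaving out any of the following libraries ended the call of PSMG3. The edgeR adjusted p was 0.052, 0.142 and 0.115 without replicate 1, 2 or 3 at 80 µM, 0.0522 without replicate 2 at 40 µM, and 0.0607 and 0.157 without control replicate 1 or 3. It was 0.0612 with no filter on low counts and 0.051 with a block for replicate number. The other pair, PSMG1 and PSMG2, changed by -0.24 ± 0.11 (edgeR, adjusted p = 0.129) and 0.10 ± 0.15 (edgeR, adjusted p = 0.644).

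POMP (ENSG00000132963, chr13:28659104-28678925, plus strand) had 52.9, 39.4 and 38.5 CPM at 0 µM, 58.4, 80.6 and 66.2 CPM at 40 µM and 65.7, 53.4 and 52.3 CPM at 80 µM. All 40 µM libraries lay above the control, and at 80 µM the lowest library was just under control replicate 1. It changed by 0.65 ± 0.17 at 40 µM, with a 95% interval of 0.28 to 1.02 (edgeR, adjusted p = 0.0757), and 0.39 ± 0.17 at 80 µM (edgeR, adjusted p = 0.0977), neither of them called. DESeq2 called POMP higher at 40 µM, by 0.64 (adjusted p = 0.0157), and edgeR called it at 80 µM without control replicate 1, by 0.56 (adjusted p = 0.0369). PSMD10, known as gankyrin, had 41.5, 37.3 and 34.9 CPM at 0 µM, 37.4, 53.5 and 39.2 CPM at 40 µM and 56.2, 54.6 and 43.3 CPM at 80 µM. Its 80 µM libraries lay above the control, and the change of 0.44 ± 0.16 missed the threshold (edgeR, adjusted p = 0.0582). It was called by DESeq2 (adjusted p = 0.0422), with only the 6 libraries compared (edgeR, adjusted p = 0.0366), without replicate 3 at 80 µM (edgeR, adjusted p = 0.0354) and without replicate 2 at 40 µM (edgeR, adjusted p = 0.0329). PSMD9 changed by -0.25 ± 0.13 at 80 µM and PSMD5 by -0.18 ± 0.12, neither of them called.

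**Figure D4:**
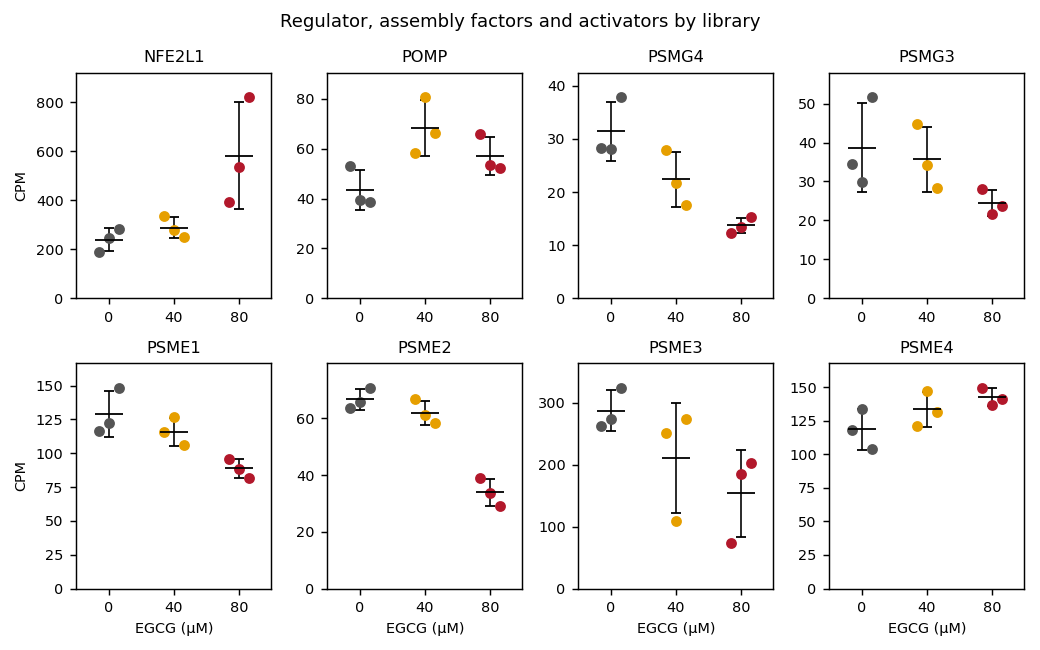
CPM of NFE2L1, 3 assembly factors and the 4 activators in each library at 0, 40 and 80 µM EGCG, with points for libraries, a bar for the mean and whiskers for the SD (n = 3). NFE2L1 stands highest and PSMG4, PSMG3, PSME1 and PSME2 stand lowest at 80 µM, POMP is highest at 40 µM, and PSME3 has 1 low library at each dose of EGCG.

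At 40 µM no member was called against the control, higher or lower, by edgeR, where 2.3% of all genes tested were called, 1.49% higher and 0.813% lower. At an unadjusted p under 0.05, 1 member was higher and 3 were lower, against 11.0% and 8.93% of all genes tested. DESeq2 called 1 member higher, POMP, and 0 lower. All 3 libraries at 40 µM lay above the control for 4 members, POMP, PSMA1, PSMC2 and PSMD14, and below it for 2, PSMG4 and PSMD9, against 12.9% and 11.5% of all genes tested. The median log2 fold change was 0.04 over the members and 0.0147 over all genes. PSMD9, a base chaperone, had 35.3, 35.0 and 39.2 CPM at 0 µM, 32.6, 28.6 and 24.1 CPM at 40 µM and 32.8, 31.0 and 28.5 CPM at 80 µM, and changed by -0.36 ± 0.13 at 40 µM (edgeR, adjusted p = 0.173).

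Between the doses, 1 member was higher and 8 were lower at 80 µM than at 40 µM, 19.1% of the 47, against 23.0% of all genes tested (10.9% higher and 12.1% lower). The median log2 fold change was -0.24 over the members and -0.0107 over all genes tested. It was under 0 for 40 of the 47 members and for 8113 of the 15982 genes. Replicate 2 at 40 µM was the highest of the 9 libraries for 18 members. NFE2L1 was the one that rose. PSME2, PSMD1, PSMD14, PSMA2, PSMG4, PSMB2, PSMB5 and PSME1 fell, with log2 fold changes between -0.87 for PSME2 and -0.38 for PSME1. PSMD14 changed by -0.50 ± 0.12 (edgeR, adjusted p = 0.0139) and PSMB2 by -0.42 ± 0.12 (edgeR, adjusted p = 0.0244), both of them genes that had stood above the control mean at 40 µM. Without replicate 2 or 3 at 80 µM, or replicate 2 at 40 µM, the edgeR adjusted p was 0.0613, 0.0684 and 0.0548 for PSMD14, 0.0951, 0.0891 and 0.0725 for PSMB2, and 0.0839, 0.0793 and 0.0652 for PSMA2. PSMB5 kept its call in 5 of 14 alternatives, with the edgeR adjusted p at 0.108, 0.103 and 0.0797 without replicate 1, 2 or 3 at 80 µM, 0.114 and 0.0594 without replicate 1 or 3 at 40 µM, and 0.0532 and 0.0523 without control replicate 1 or 2. PSMG4 had 0.0737 and 0.0799 without replicate 1 or 2 at 80 µM and 0.0764 without replicate 1 at 40 µM, and PSMD1 had 0.0548 without replicate 2 at 80 µM (edgeR, adjusted p). The number called lower was 5 without replicate 1, 1 without replicate 2 and 3 without replicate 3 at 80 µM, and 4 without replicate 2 at 40 µM. All 3 libraries at 80 µM lay above those at 40 µM for 1 member and below them for 13, against 20.1% and 21.5% of all genes tested. NFE2L1 and PSME2 kept their calls in all 14 alternatives, and PSME1 kept its call in 3.

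The members' levels in untreated cells were compared per kilobase of merged exons, which makes genes of different length comparable. PSMB4 was highest at 216 ± 28.7 CPM per kilobase and PSMA7 followed at 162 ± 20.1 (SD, n = 3 each). PSMD2 followed at 103 ± 11.9. In this order, the ranges over the 3 libraries did not overlap for 7 of the 46 pairs of neighbours. Within each library taken alone, 14 of the 46 pairs stood in the same order in all 3. PSMB5, the drug target, ranked 32 of the 47 at 15.5 ± 1.90, below PSMB7 at 98.9 ± 11.7 and PSMB6 at 74.5 ± 11.0. Among the core subunits, PSMA5 at 13.2 ± 1.24, PSMA6 at 11.6 ± 0.536 and PSMB3 ranked lower still. Each constitutive core holds equal numbers of its subunits, so the listed level of PSMB5, like theirs, may not measure its RNA, which was not tested. PSMB10 had 70.5 ± 6.85. PSME1 had 72.5 ± 9.58 and PSME2 had 18.6 ± 1.04. NFE2L1 ranked 18 at 41.2 ± 8.29, POMP had 30.5 ± 5.65 and PSMG4 had 3.01 ± 0.533. The merged length counts every annotated exon, so a gene with long rare isoforms is set too low. By the deposited FPKM, 5 of the 47 ranks moved by more than 10 places, and NFE2L1 ranked 31.

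**Figure D5:**
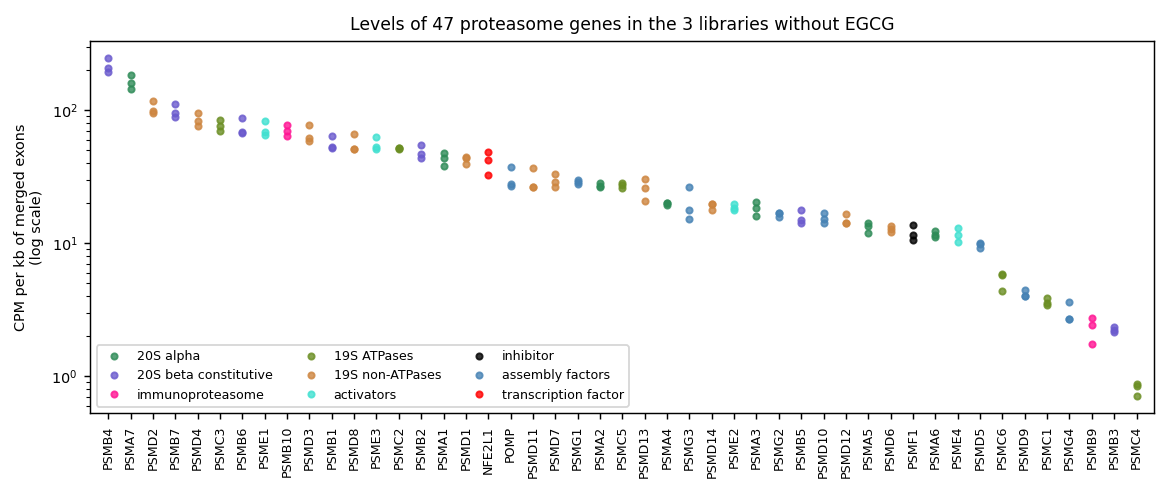
Level of each of the 47 tested members in the 3 libraries at 0 µM, as CPM per kilobase of merged exons on a log scale, ordered by the mean and coloured by class. Levels run from 216 for PSMB4 to 0.809 for PSMC4, and classes are mixed along the order. The listed levels of PSMB3 and PSMC4, the lowest, were not taken as measures of their RNA.

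RefSeq promoters (GRCh38.p14) were found for 44 of the 50 members, as 54 entries of the 35116 in the table. Those of PSMA7, PSMB1, PSMB6, PSMB7, PSMD4 and PSMG3 were not matched. The 250 bases before each start were searched on both strands for 7 motifs. TGACNNNGC was in 24.1% of the members' promoters and 10.9% of all promoters, and its 13 genes were PSMA4, PSMB3, PSMB9, PSMC5, PSMD12, PSMD3, PSMD5, PSMD9, PSME1, PSME2, PSME4, PSMG1 and PSMG2. The interferon core was in 9.26% of the members' promoters and 3.02% of all, in PSMA4, PSMB10, PSMB4, PSME2 and PSMG4. The ETS core CCGGAA was in 35.2% and 14.5%, and the CCAAT box in 37.0% and 32.0%. The ATF4 element TGATGNAA, the cAMP response element TGACGTCA and the heat shock element were in 0 of the members' promoters, against 3.14%, 1.65% and 0.441% of all. At 80 µM against the control, 17.5% of all genes tested and 23.4% of the tested members were called lower. PSMA7 and PSMG3, both called lower, are among the members without a matched promoter. Of the 5 genes with the interferon core, PSME2, PSMB10 and PSMG4 fell at 80 µM, while PSMA4 and PSMB4 were not called, at -0.08 and -0.08. Among the 13 genes with TGACNNNGC, PSME1 and PSME2 fell and the others were not called. Of the 19 genes with the ETS core, PSMB5, PSMC3, PSMD2 and PSMG4 fell and none rose. Of the 20 genes with the CCAAT box, PSMA2, PSMB5 and PSMC3 fell and NFE2L1 rose. Whether a motif goes with a change was not tested. A match is a run of letters and does not show that a factor binds there.

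A further list held the factors that process or degrade NFE2L1, its relatives, the small MAF proteins and the heat shock factor HSF1. Of 13 tested of 15 listed, 4 rose and 4 fell at 80 µM against the control, 61.5% against 34.9% of all genes tested, and the median log2 fold change was -0.16. The list was chosen with earlier results of these data known, so this share is only a description. VCP and NGLY1 are among those that fell, and both lost their calls when certain single libraries were left out. VCP is also counted in the ubiquitin list below. SEL1L, part of the HRD1 ubiquitin ligase complex that clears NFE2L1 from the endoplasmic reticulum, averaged 359 ± 50.5 CPM at 0 µM, 568 ± 50.2 CPM at 40 µM and 822 ± 70.5 CPM at 80 µM (SD over 3 libraries) and rose by 1.19 ± 0.13 at 80 µM (edgeR, adjusted p = 8.82e-05). FBXW7, the substrate receptor of a ligase that acts on NFE2L1 in the nucleus, averaged 30.9 ± 0.977 CPM at 0 µM, 33.5 ± 1.66 CPM at 40 µM and 63.0 ± 4.31 CPM at 80 µM and rose by 1.03 ± 0.10 (edgeR, adjusted p = 6.96e-05). MAFG, a small MAF protein with which NFE2L1 binds DNA, fell by 1.00 ± 0.14 (edgeR, adjusted p = 0.000532), and the relative NFE2L3 fell by 0.60 ± 0.10 (edgeR, adjusted p = 0.00103). At 40 µM SEL1L was the member of this list that was called (0.66 ± 0.13, edgeR adjusted p = 0.0262). That call was lost in 6 alternatives, with the edgeR adjusted p at 0.099 and 0.0913 without replicate 2 or 3 at 40 µM, and at 0.0834 and 0.0773 without control replicate 1 or 3.

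Among 12 partners of the proteasome whose symbols lie outside the PSM series, 1 rose and 1 fell at 80 µM, 16.7% against 34.9% of all genes tested, with a median of 0.07. USP14, a deubiquitinase that docks on the cap, rose by 0.47 ± 0.11 (edgeR, adjusted p = 0.00754), and averaged 160.0 ± 18.4 CPM at 0 µM, 195 ± 15.6 CPM at 40 µM and 221 ± 7.18 CPM at 80 µM. SEM1, the smallest subunit of the lid, fell by 0.42 ± 0.13 (edgeR, adjusted p = 0.0307), and averaged 62.4 ± 1.63 CPM at 0 µM, 58.8 ± 11.3 CPM at 40 µM and 46.5 ± 0.883 CPM at 80 µM. The edgeR adjusted p of SEM1 was 0.0634, 0.0991 and 0.0914 without replicate 1, 2 or 3 at 80 µM, and 0.0835 and 0.0777 without control replicate 1 or 2. TXNL1, a thioredoxin of the cap, and AKIRIN2, which carries proteasomes into the nucleus, had log2 fold changes of 0.32 and 0.24 and were not called.

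Of 12 tested of 13 listed regulators and neighbours of the immunoproteasome, 1 rose and 3 fell at 80 µM, with a median of -0.27. The 33.3% called lay near the 34.9% of all genes tested. NLRC5, the activator of the class I antigen presentation genes, averaged 18.3 ± 2.84 CPM at 0 µM, 11.6 ± 1.07 CPM at 40 µM and 5.81 ± 1.01 CPM at 80 µM and fell by 1.66 ± 0.18 (edgeR, adjusted p = 9.71e-05). ERAP1, which trims peptides for presentation, fell by 0.47 ± 0.10 (edgeR, adjusted p = 0.0047). TAP2, a peptide transporter subunit whose gene lies in the same region as PSMB8 and TAP1, averaged 4.11 ± 1.24 CPM at 80 µM, against 8.82 ± 0.201 CPM at 0 µM, and fell by 1.09 ± 0.33 (edgeR, adjusted p = 0.0244). The edgeR adjusted p of TAP2 ran from 0.0533 to 0.0863 without replicate 1 or 3 at 80 µM or without any single control library.

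Of 21 genes for ubiquitin itself and for the factors that carry substrates to the proteasome, 5 rose and 2 fell at 80 µM, with a median of 0.09. The 33.3% called lay near the 34.9% of all genes tested, so the genes below are described singly. SQSTM1 (p62), which takes ubiquitinated cargo to autophagy, averaged 543 ± 83.0 CPM at 0 µM, 794 ± 29.3 CPM at 40 µM and 1683 ± 60.8 CPM at 80 µM. It rose by 0.55 ± 0.11 at 40 µM (edgeR, adjusted p = 0.0352) and by 1.63 ± 0.12 at 80 µM (edgeR, adjusted p = 7.87e-06). The call of SQSTM1 at 40 µM was lost without any library but control replicate 3, with edgeR adjusted p from 0.0594 to 0.14. ZFAND2A (AIRAP), a stress-induced protein that binds the proteasome, averaged 15.3 ± 1.62 CPM at 0 µM, 20.4 ± 1.94 CPM at 40 µM and 34.1 ± 3.64 CPM at 80 µM and rose by 1.15 ± 0.14 at 80 µM (edgeR, adjusted p = 0.000182). ZFAND5, which stimulates the proteasome, rose by 0.58 ± 0.12 (edgeR, adjusted p = 0.00463), and FAF2, which recruits VCP, by 0.42 ± 0.10 (edgeR, adjusted p = 0.00763). The fifth that rose was the shuttle UBQLN2, and the members that fell were UBQLN4 and VCP, these 3 being named after their values were seen. UBQLN4 lost its call without any single library at 80 µM (edgeR, adjusted p from 0.0566 to 0.0653). VCP lost its call without any single library but replicate 2 at 40 µM (edgeR, adjusted p from 0.0501 to 0.149).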

How the data were processed

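Per the file headers, the table the authors deposited holds whole-number counts, not normalized, and FPKM values for each gene in every library. The deposited FPKM values were not used to compare genes, because the length they imply was 1.05 to 5.03 times the merged exons, with a median of 1.76. That length had a median of 0.996 times the sum of all distinct exons, but over 1.5 times it for 5 members. Per the submitters' processing notes, the tools were edgeR, SAMtools 1.3.1, HISAT2 and CASAVA 1.8 and the build was GRCh38, with no role stated for any. The sources used here give neither the annotation release nor the strand setting of the counting.

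Counts of all 9 libraries were fitted with edgeR 4.0.16 (R 4.3.3) after filterByExpr by group and TMM scaling, with dose as the only factor and 6 residual degrees of freedom. The quasi-likelihood test was two-sided, and p-values were adjusted by Benjamini-Hochberg over 15982 genes, with a threshold of 0.05. Every adjusted p marked edgeR comes from this test. The ± beside a log2 fold change is its standard error, and its interval is a 95% interval from the same fit. The common biological coefficient of variation was 0.187. The fit was tested on simulated counts of 15596 genes, for 80 µM against the control. Of 67 genes set 0.5 apart on the log2 scale, up or down, a share of 0.09 was called. The share was 0.73 for genes set 1 apart and 1 for genes set 2 apart, and 12 calls were false. Not being called therefore does not show that a member stayed level, least of all for differences near 0.5.

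CPM used TMM library sizes, and levels per kilobase used merged GENCODE 29 exons. The alternatives were RLE size factors, DESeq2 1.42.0, no filter on low counts, only the 6 libraries compared, a replicate block, and leaving out each library. Members, gene lists and the rule for named genes were chosen with earlier results of these data known. The rule gives every library's value for NFE2L1, POMP, PSMF1, the catalytic subunits and, per class, the 3 members with the smallest p at 80 µM and the 1 with the smallest p at 40 µM against the control, and names 4 genes of each other list. Some genes of the other lists that the rule would name are counted in their list but not reported here.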

Additional observations from a re-analysis of the deposited data

How the results depend on the processing

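Every log2 fold change of a member kept its direction wherever it was called. Of the single-member values under the alternatives, 1887 stayed on the same side of the threshold, 73 lost the call, 14 gained it and 0 reversed. With DESeq2, 2 members were higher at 80 µM and 1 at 40 µM, and 859 genes of all were called at 40 µM against 368 with edgeR. With no filter on low counts, 228 genes of all were called at 40 µM. With only the 6 libraries compared, 2 members were higher at 80 µM and 153 genes of all were called at 40 µM. Leaving out each library in turn gave 1 to 2 members higher and 3 to 11 lower at 80 µM against the control, with 4170 to 5775 of all genes called against 5574 with all libraries. At 40 µM it gave 0 to 1 higher, 0 lower, and 136 to 469 of all genes. At 80 µM against 40 µM it gave 1 higher, 1 to 10 lower, and 2101 to 4059 of all genes against 3674. The fits with a library left out also held fewer libraries, and the cause of these differences was not tested.

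No pairing by replicate number was seen. Deviations of same-numbered libraries correlated from -0.139 to 0.0513 (9 pairs), and those of other pairs from -0.108 to 0.116 (18 pairs). With 3 libraries per dose these values cannot exclude a shared culture or batch behind equal numbers, and the labels do not tie equal numbers together. With the replicate block, 183 genes of all were called at 40 µM, 9 members in place of 11 were lower at 80 µM than in the control, without PSMB5 (edgeR, adjusted p = 0.0634) and PSMG3 (edgeR, adjusted p = 0.051), and 5 members in place of 8 were lower at 80 µM than at 40 µM. By deposited FPKM in place of CPM per kilobase, an alternative chosen after seeing the data, PSMA7 ranked 1 and PSMB4 ranked 2, NFE2L1 ranked 31 in place of 18, PSMD1 32 in place of 17, PSMC2 27 in place of 14 and PSMA2 36 in place of 23. Depth limits PSMB3 and PSMC4, with 306 and 267 counts in all.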

Other observations

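MAFF, another small MAF protein, averaged 8.14 ± 3.63 CPM at 0 µM, 12.4 ± 1.21 CPM at 40 µM and 25.4 ± 9.59 CPM at 80 µM and rose by 1.64 ± 0.36 at 80 µM against the control (edgeR's quasi-likelihood test, adjusted p = 0.00573), while MAFG fell. NFE2L2, the relative of NFE2L1 that answers oxidative stress, changed by 0.65 ± 0.25 (edgeR, adjusted p = 0.0634). NGLY1, the enzyme that removes sugars from NFE2L1 on its way to the nucleus, fell by 0.37 ± 0.10 (edgeR, adjusted p = 0.0141), and DDI2, the protease that cuts it, changed by -0.16 ± 0.16 (edgeR, adjusted p = 0.476). The edgeR adjusted p of NGLY1 was 0.0684 without replicate 3 at 80 µM and 0.0559 without control replicate 1, and that of NFE2L2 was 0.0144 without replicate 1 at 80 µM and 0.0464 without replicate 2 at 40 µM. These were chosen after their values were seen.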
